A study of Mus musculus with 18 samples.

Results

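The canonical Wnt pathway was followed through 9 genes, chosen by symbol among the 55487 genes of the count table: the nuclear effectors Ctnnb1, Tcf7 and Tcf7l1, the transcriptional targets Axin2 and Sp5, and the secreted proteins Dkk1, Notum, Rspo3 and Wnt5a. All 9 had enough counts to be tested in every comparison. Bulk RNA-seq covered 3 stages of mouse ES-E14TG2a cells, an embryonic stem cell line, with 6 libraries each. The first was mESCs kept in Serum/LIF medium, where LIF is the cytokine that holds them undifferentiated. The others were embryoid bodies (EBs), aggregates that differentiate in suspension in medium with serum, ascorbic acid and transferrin and no LIF, collected at 48 hr and at 96 hr. Each stage held 3 IκBα-WT (IkappBalpha+/+) and 3 IκBα-KO (IkappBalpha-/-) clones by the labels. KO clones were single cells sorted after Cas9 and a pair of guides to exon 1 of Nfkbia, the gene of the NF-κB inhibitor IκBα, and were kept for loss of the protein, while WT clones had received non-targeting guides. Each clone is thus a line grown from 1 cell. The mESC libraries carry genotype and number. The EB libraries carry clone codes (D4, E14, E2, E3, H7 and H9, each present at both times) that the labels do not pair with a genotype, so KO and WT were compared in mESCs only and the EBs were described by stage and code. The labels do not explain the codes, and E14 is also part of the name of the cell line.

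In the canonical pathway, Wnt ligands bind Frizzled and Lrp receptors and stop a destruction complex built on Axin and Apc from degrading β-catenin, the product of Ctnnb1. β-catenin then enters the nucleus and joins DNA-bound TCF/LEF factors, where Tcf7 and Lef1 act mostly as activators and Tcf7l1 (Tcf3) mostly as a repressor. Axin2 and Sp5 are direct targets in many tissues, and Axin2 feeds back on the pathway as part of the destruction complex. Dkk1 blocks the Lrp co-receptors, Notum removes the lipid that Wnt ligands need, Rspo3 stabilises Frizzled receptors through Lgr proteins, and Wnt5a is a ligand best known for β-catenin-independent signaling. In the embryo, Wnt signaling is required to form the primitive streak, from which mesoderm and endoderm arise, and in mESCs it relieves repression by Tcf7l1.

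Promoter sequence was read from RefSeq (GRCm38.p6) to show where the letters bound by TCF/LEF factors lie near the members. An entry was found for 6 of the 9 (Axin2, Ctnnb1, Dkk1, Sp5, Tcf7 and Tcf7l1). Among these, CTTTGAT or CTTTGAA, searched on both strands in the 250 bases before each start, was found for Sp5 and Dkk1. Both are shown 5′ to 3′ on the strand of the gene with the match in capitals. Sp5 lies on the plus strand (chr2:70474673-70474922), and its match begins 104 bases before the start. Dkk1 lies on the minus strand (chr19:30549497-30549746), and its match begins 117 bases before the start. Both starts are those of the RefSeq entries. The annotated span of Dkk1 used for the counts reaches chr19:30549665, beyond the RefSeq start. Part of the Dkk1 stretch, with the match, therefore lies inside that span and not upstream of it.
Sp5: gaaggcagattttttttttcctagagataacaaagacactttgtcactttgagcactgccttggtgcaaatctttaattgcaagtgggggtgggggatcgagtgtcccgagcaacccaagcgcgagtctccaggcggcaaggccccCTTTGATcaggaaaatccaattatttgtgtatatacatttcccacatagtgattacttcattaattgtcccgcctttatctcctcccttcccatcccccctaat
Dkk1: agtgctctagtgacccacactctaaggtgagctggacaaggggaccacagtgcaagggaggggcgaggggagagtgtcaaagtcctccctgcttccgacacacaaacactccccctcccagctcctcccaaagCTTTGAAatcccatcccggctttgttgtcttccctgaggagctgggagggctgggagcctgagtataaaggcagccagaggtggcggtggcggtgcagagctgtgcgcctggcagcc
Among 32851 promoters of the same length, 3.21% hold CTTTGAT and 4.46% hold CTTTGAA. A match describes letters only.

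On GRCm38, the members lie apart except for 3 genes on chromosome 11. Axin2 (ENSMUSG00000000142) lies at chr11:108920349-108950783 on the plus strand, Tcf7 (ENSMUSG00000000782) at chr11:52252371-52283014 on the minus strand and Notum (ENSMUSG00000042988) at chr11:120653788-120661175 on the minus strand. Ctnnb1 (ENSMUSG00000006932) lies at chr9:120929216-120960507 (plus), Tcf7l1 (ENSMUSG00000055799) at chr6:72626378-72789254 (minus) and Sp5 (ENSMUSG00000075304) at chr2:70474923-70477729 (plus). Dkk1 (ENSMUSG00000024868) lies at chr19:30545863-30549665 (minus), Rspo3 (ENSMUSG00000019880) at chr10:29452416-29535867 (minus) and Wnt5a (ENSMUSG00000021994) at chr14:28504750-28527448 (plus). Values are sums over all exons of each gene.

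Library totals lay between 28287582 and 40904247 counts, and the KO mESC libraries (34107070 to 40904247) were deeper than the WT ones (29423089 to 31091857). Levels are raw counts or CPM, counts divided by the TMM-scaled library size, and differences are log2 fold changes with their standard error (SE) from edgeR's quasi-likelihood test, with p-values adjusted by Benjamini-Hochberg over all genes tested. Called means an adjusted p under 0.05. Nfkbia had 1009, 1069 and 767 counts in WT mESCs and 347, 385 and 372 in KO mESCs, a log2 fold change of -1.67 (SE 0.14, edgeR adjusted p = 0.00489), so its RNA was lower in every KO clone but still counted. Summed over 7 markers, pluripotency genes stood at 3111 to 3953 CPM in mESCs, 1557 to 2259.8 in EBs at 48 hr and 649 to 1685 at 96 hr. Summed over 7 markers, mesoderm genes stood at 9.29 to 27.9 CPM in mESCs, 13.0 to 74.8 at 48 hr and 18.1 to 1219 at 96 hr, where the E14, H7 and H9 libraries held 613 to 1219 CPM and the D4, E2 and E3 libraries 31.1 or less.

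Per kilobase of exon, Ctnnb1 was far the most abundant member in WT mESCs, with a median of 187 CPM per kb. Tcf7 (21.9), Notum (15.4) and Tcf7l1 (13.0) followed, Axin2 stood at 2.28, and Sp5 (0.236), Wnt5a (0.224), Dkk1 (0.0947) and Rspo3 (0.0219) were near the bottom. The WT clones of Notum spanned 11.8 to 20.4 CPM per kb and overlapped those of both Tcf7 and Tcf7l1, while Tcf7 lay above Tcf7l1 in every clone. Sp5 overlapped Wnt5a and Dkk1, and Dkk1 overlapped Rspo3, so those neighbours cannot be ordered. Wnt5a lay above Dkk1 and Rspo3, and Sp5 above Rspo3, in every clone. Exons of Axin2, Ctnnb1, Rspo3, Wnt5a, Notum and Tcf7l1 overlap genes on the other strand, and since the sources used here give no strand setting for the counting, reads in those overlaps cannot be told apart. Sp5, Tcf7 and Dkk1 have no such overlap.

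Loss of IκBα in mESCs left most of the 9 members uncalled. Notum was lower in KO clones, by about 2.01-fold, and was the only member called. Sp5 and Ctnnb1 were lower and Dkk1 higher by values that missed the threshold, and Axin2, Tcf7 and Tcf7l1 had log2 fold changes of 0.18, -0.18 and 0.02. Beside that 1 of 9 members, 4.79% of the 21843 genes tested were called, 3.09% higher and 1.69% lower. Notum also passed an absolute log2 fold change of 1, as 1.7% of all genes did. Groups did not overlap in CPM for 4 members (Notum, Sp5, Ctnnb1 and Wnt5a, each lower in KO), while 28.9% of all genes showed no overlap. With 3 clones against 3, an exact two-sided permutation test cannot go below p = 0.1, which those 4 members reached.

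**Figure D1:**
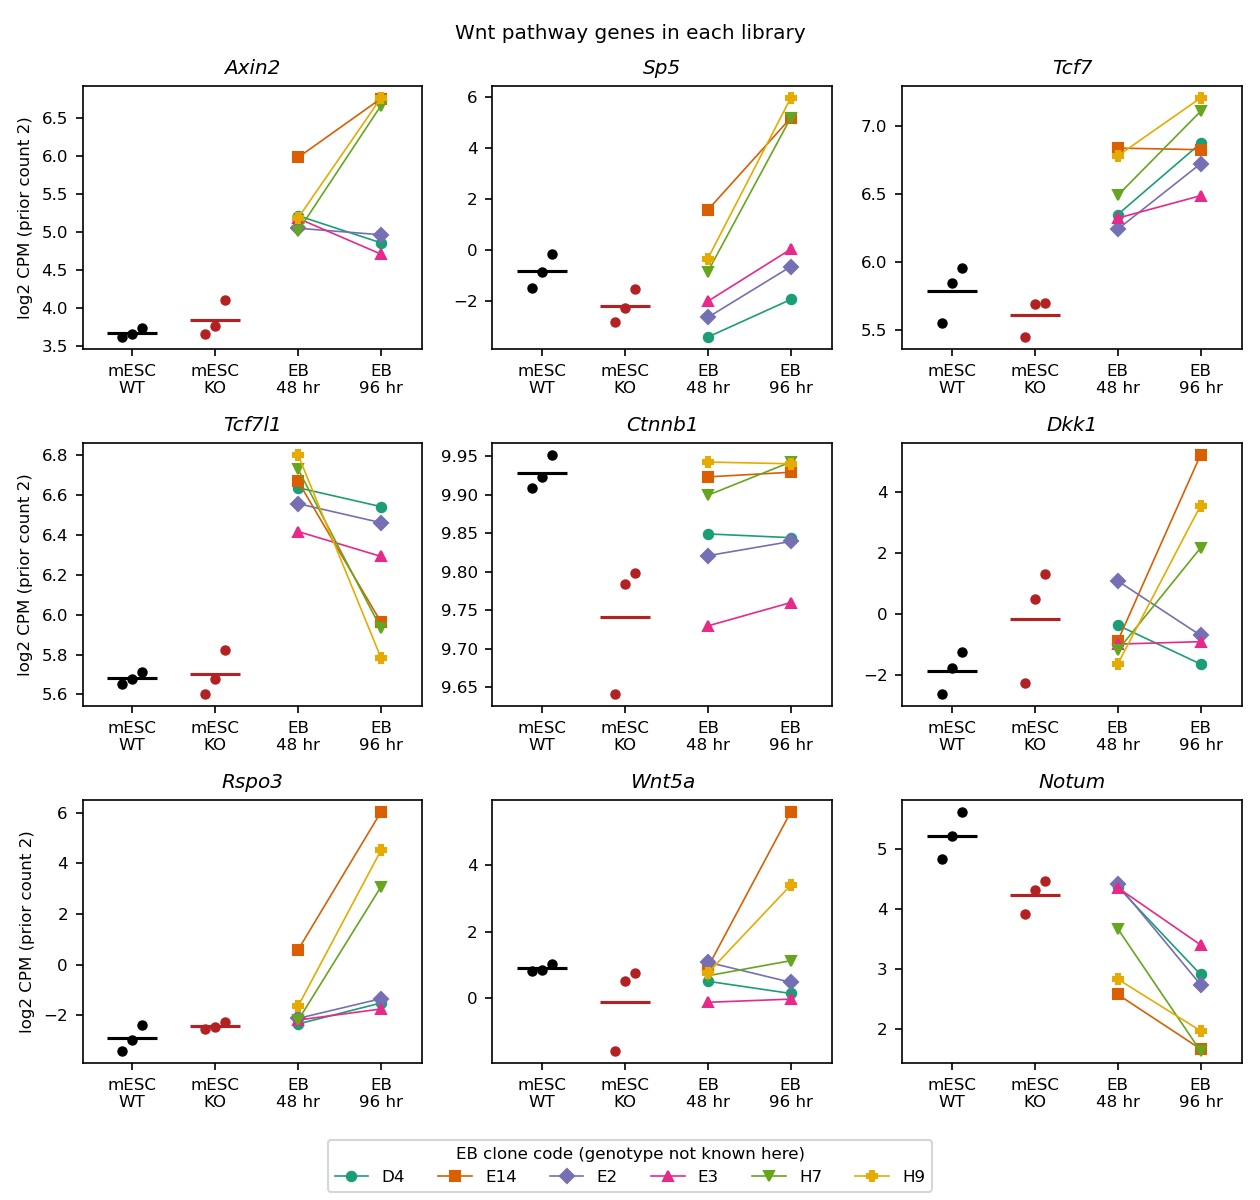
Level of each of the 9 Wnt pathway genes in each library, as log2 CPM (prior count 2; vertical axis, 1 panel per gene), for IκBα-WT and IκBα-KO mESC clones (points, with a bar at the mean) and for EBs at 48 hr and 96 hr (lines join the libraries of 1 clone code). Notum is lower in every KO than in every WT clone and lowest at 96 hr, and Sp5, Rspo3, Dkk1 and Axin2 stand high at 96 hr in the E14, H7 and H9 libraries.

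Among the nuclear effectors, Ctnnb1 had 29219, 29576 and 29109 counts in WT clones and 30049, 32549 and 32672 in the deeper KO libraries, or 961 to 990 CPM against 798 to 890.5 CPM. Every KO clone was lower after scaling, with KO 2 lowest, and the log2 fold change was -0.18 (SE 0.07, edgeR adjusted p = 0.160). On chromosome 9, which carries Ctnnb1, the median gene of KO 2 stood 0.19 below the WT mean on the log2 scale. In KO 1 and KO 3 it stood 0.05 and 0.01 above that mean. With an offset for each chromosome, Ctnnb1 was again lower in KO and not called. The cause of the Ctnnb1 difference was not tested. Tcf7 had 1383, 1749 and 1880 counts in WT and 1754, 2108 and 1598 in KO, with a log2 fold change of -0.18 (SE 0.12, edgeR adjusted p = 0.408). Tcf7l1 had 1483, 1555 and 1589 counts in WT and 1653, 2304 and 1875 in KO, which after scaling gave overlapping groups and a log2 fold change of 0.02 (SE 0.08, edgeR adjusted p = 0.909). All 6 mESC libraries of this repressor lay between 48.5 and 56.5 CPM.

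Neither target was called. Axin2 had 393, 383 and 370 counts in WT and 462, 514 and 628 in KO, and the groups overlapped at 12.2 to 13.3 CPM and 12.6 to 17.1 CPM. Its log2 fold change was 0.18 (SE 0.14, edgeR adjusted p = 0.502). Sp5, a zinc finger factor that acts downstream of Wnt, was barely counted, with 25, 9 and 15 counts in WT and 10, 6 and 3 in KO. The KO clones were all lower after scaling, and the log2 fold change was -1.65 (SE 0.56, edgeR adjusted p = 0.135).

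Of the secreted members, Notum had 1446, 1132 and 859 counts in WT and 677, 615 and 813 in KO, or 38.2 ± 10.4 CPM against 19.0 ± 3.61 CPM (SD, n = 3 each). All WT clones lay above all KO clones, and the log2 fold change was -1.01 (SE 0.22, edgeR adjusted p = 0.0403). That call sat close to the threshold and was lost on leaving out any one of the 6 clones (adjusted p = 0.0793 to 0.166). It was also lost without the low-count filter (0.0983) and with an offset for each 10 Mb window (0.0611). With the replicate number as a block it was 0.0520, but WT and KO clones of the same number are not paired. Wnt5a had 50, 60 and 53 counts in WT and 55, 11 and 50 in KO, where the KO 2 library was far below the rest, and its log2 fold change was -0.75 (SE 0.52, edgeR adjusted p = 0.450). Rspo3 was close to the counting limit, with 1 to 5 counts in each mESC library.

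Dkk1 split the KO clones. It had 3, 7 and 11 counts in WT and 46, 6 and 89 in KO, so KO 1 and KO 3 stood above every WT clone and KO 2 among them. The log2 fold change was 2.47 (SE 0.89, edgeR adjusted p = 0.156), the DESeq2 Wald test gave an adjusted p of 0.0335, and without KO 2 the value was 3.01 (edgeR adjusted p = 3.48e-04). Endoderm markers moved with it: summed over 6 genes they stood at 25.3 CPM in KO 1, 3.88 in KO 2 and 35.2 in KO 3, against 5.51 or less in WT clones. The mesoderm markers split the KO clones alike, with 22.3 CPM in KO 1, 10.3 in KO 2 and 27.9 in KO 3 against 9.29 to 11.9 in WT clones summed over 7 genes. The endoderm factor Sox17 had 121, 13 and 133 counts in KO and 7 to 9 in WT, and all 6 markers of the list had counts in every mESC library. None of the 6 endoderm markers was called by edgeR (4 had an unadjusted p under 0.05, and DESeq2 called 2 and limma 0), nor any of the 7 mesoderm markers (1 at an unadjusted p under 0.05, 1 in DESeq2 and 0 in limma). The part of either list in the Dkk1 values was not tested.

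Beyond the members, 7 lists of Wnt pathway genes held 94 other genes, of which 87 were tested in mESCs. Of these, 6 were higher in KO and 9 lower, or 17.2% against the 4.79% of all genes, and their median log2 fold change was -0.05 against 0.01 over all genes. The shares were not matched for expression level, and the lists were chosen with earlier results of these data known. The largest fall was in Lef1, the TCF/LEF activator, with 446, 631 and 908 counts in WT and 71, 64 and 142 in KO (log2 fold change -3.13, SE 0.36, edgeR adjusted p = 0.00626). The highest KO library of Lef1 was thus far below the lowest WT library. Leaving out 1 clone kept its value between -3.59 and -2.84 with an adjusted p of 0.0203 to 0.0672, which passed the threshold except without WT 2 (0.0672) or WT 3 (0.0562). Tcf7l2 (-0.50), another TCF/LEF factor, was not called. Nor were Tle1 to Tle4 (Tle1 0.01, Tle2 1.01, Tle3 -0.05 and Tle4 -0.39), the co-repressors that bind TCF factors.

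Ligands and receptors were also among the genes called in mESCs. Wnt3, the ligand needed for the primitive streak, had 22, 18 and 40 counts in WT and 7, 9 and 12 in KO (log2 fold change -1.80, SE 0.41, edgeR adjusted p = 0.0451). That call was lost on leaving out any clone but KO 2 (edgeR adjusted p = 0.0907 to 0.185) and in limma (adjusted p = 0.0575). The receptor tyrosine kinase Ror1 fell (-1.93) while its relative Ror2 rose (0.48), and among the Frizzled receptors Fzd7 fell (-0.45) and Fzd6 rose (0.84). The Rspondin receptor Lgr4 fell by 0.37 on the log2 scale. Of the antagonists that bind Wnt ligands or receptors outside the cell, Sfrp2 fell (-0.83), and Sfrp4 (0.76) and Apcdd1 (0.91) rose. Within the cell, the destruction complex members Apc2 (-1.36) and Gsk3b (-0.32) fell and the casein kinase Csnk1e rose (0.77). Of the genes that respond to Wnt in other tissues, the caudal factor Cdx1 rose (1.70) and the cyclin Ccnd1 fell (-0.40).

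By list, the mESC calls were 1 lower of 16 ligands tested, 0 of 6 genes of Wnt secretion and Rspondins, 2 higher and 3 lower of 18 receptors, 2 higher and 2 lower of 16 extracellular antagonists, 1 higher and 2 lower of 20 genes of cytoplasmic transduction, 1 lower of 12 nuclear factors, and 2 higher and 3 lower of 18 response genes. For secretion and Rspondins, edgeR gave 0 genes at an unadjusted p under 0.05 as well, and DESeq2 and limma called 0. Some genes stand in more than 1 list, Notum among them. The number of these calls changed on leaving out 1 clone. Without WT 2, 0 of 96 Wnt list genes passed in edgeR (27 at an unadjusted p under 0.05), and without KO 2, 29 passed. Over all genes, the 1046 calls likewise became 0 without WT 2 and 3736 without KO 2. A fit with fewer clones has less power, so a lost call does not show that 1 clone carried a difference.

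**Figure D2:**
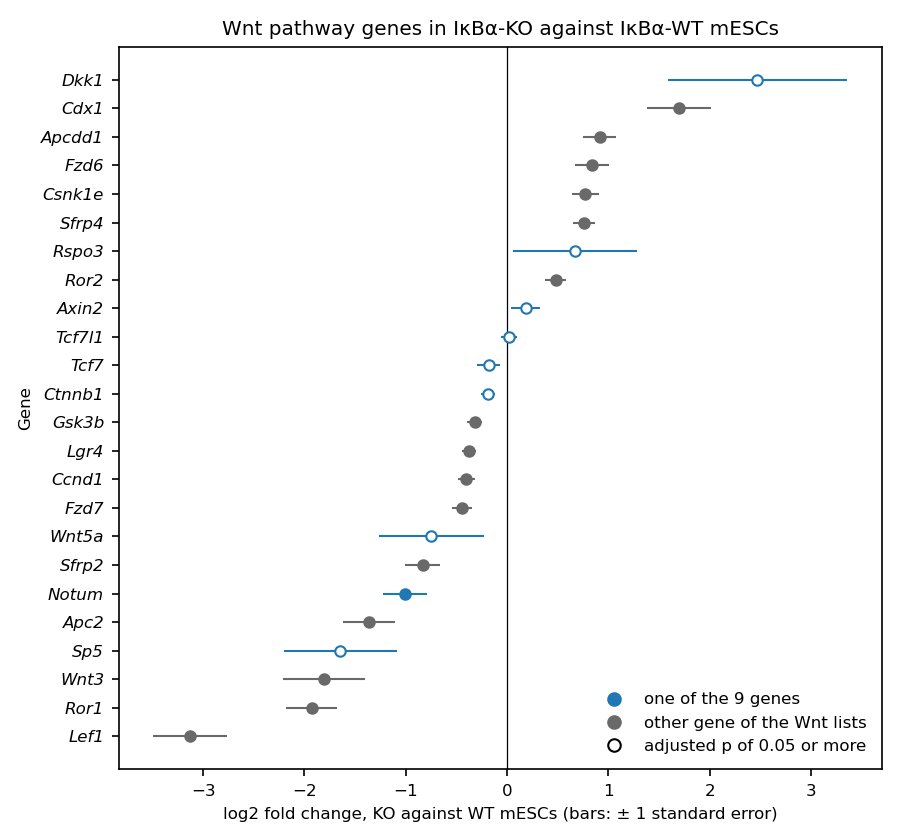
Log2 fold change of IκBα-KO against IκBα-WT mESCs (horizontal axis, bars ± 1 SE) for the 9 members (blue) and for the other Wnt list genes that were called (grey), where open points have an adjusted p of 0.05 or more. Lef1 lies lowest at -3.13, Notum at -1.01 is the only filled blue point, and Dkk1 has the widest bar.

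The stages were then compared over both genotypes, 6 libraries each, so that genotype lies inside the spread of a stage. The 3 comparisons share libraries and are not independent of each other. In bulk RNA, fewer cells of a type and less RNA per cell cannot be told apart. From mESCs to EBs at 48 hr, 3 of the 9 members were called, all higher (Axin2, Tcf7 and Tcf7l1), where 27.9% of 25318 genes were called and 14.9% were higher. From 48 hr to 96 hr, 5 members rose (Sp5, Rspo3, Dkk1, Wnt5a and Tcf7) and 2 fell (Tcf7l1 and Notum), where 27.7% of genes were called, 13.9% higher and 13.8% lower. That fit leaves the clone codes unpaired. With the code as a block, Dkk1 (edgeR adjusted p = 0.284) and Wnt5a (edgeR adjusted p = 0.299) were not called. Between mESCs and EBs at 96 hr, 7 members were higher and Notum was lower, where 43.0% of genes were called, 22.7% higher and 20.3% lower. Ctnnb1 was called in none of the comparisons. With an absolute log2 fold change over 1 also required, 1, 5 and 7 members passed in the 3 comparisons, beside 9.57%, 11.9% and 20.8% of all genes. From 48 hr to 96 hr the libraries overlapped for each of the 9 members, while 8.94% of all genes showed no overlap.

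Ctnnb1 RNA stayed in a narrow range. It spanned 798 to 990 CPM in mESCs (median 926), 849 to 984 at 48 hr (median 939) and 867 to 984 at 96 hr (median 947). The log2 fold change was 0.02 (SE 0.06, edgeR adjusted p = 0.792) at 48 hr against mESCs and 0.04 (SE 0.06, edgeR adjusted p = 0.604) at 96 hr against mESCs. The amount of β-catenin protein was not measured here.

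The TCF factors moved at the first step. Tcf7 spanned 43.6 to 62.1 CPM in mESCs (median 51.6), 75.5 to 114 at 48 hr (median 85.5) and 89.6 to 148 at 96 hr (median 115), so both EB stages lay above every mESC library. The log2 fold change was 0.81 (SE 0.13, edgeR adjusted p = 1.08e-04) at 48 hr and a further 0.37 (SE 0.13, edgeR adjusted p = 0.0392) from 48 hr to 96 hr. Groups did not overlap for Tcf7, Tcf7l1 and Axin2 at 48 hr against mESCs, 3 of 9 members, beside 16.7% of all genes. The second step for Tcf7 was lost on leaving out clone codes D4, E2, H7 or H9 (adjusted p = 0.0655 to 0.138).

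Tcf7l1 rose and then came partly back. It spanned 48.5 to 56.5 CPM in mESCs (median 51.1), 85.4 to 112 at 48 hr (median 101) and 55.0 to 93.2 at 96 hr (median 70.3). The log2 fold change was 0.95 (SE 0.11, edgeR adjusted p = 5.91e-06) at 48 hr and -0.45 (SE 0.11, edgeR adjusted p = 0.00661) from 48 hr to 96 hr, with an exact permutation p of 0.00866 for the second step. All 6 clone codes fell, by 0.09 to 1.02 on the log2 scale, and the H9, H7 and E14 libraries ended lowest, at 55.0, 61.0 and 62.3 CPM. Even so, 96 hr stayed above mESCs by 0.50 (SE 0.11, edgeR adjusted p = 0.00147).

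Axin2 rose in every EB library at 48 hr. It spanned 12.2 to 17.1 CPM in mESCs (median 13.0), 32.2 to 62.8 at 48 hr (median 36.1) and 26.1 to 108 at 96 hr (median 65.9). The log2 fold change was 1.54 (SE 0.34, edgeR adjusted p = 0.00222) at 48 hr, and the 48 hr and mESC libraries did not overlap (exact permutation p = 0.00216, the smallest that 6 against 6 libraries allow). At 96 hr the libraries parted: E14, H7 and H9 held 101 to 108 CPM and D4, E2 and E3 26.1 to 31.1 CPM. From 48 hr to 96 hr the code changes ran from -0.47 to 1.65 on the log2 scale, 3 up and 3 down, and the stage difference of 0.76 (SE 0.33, edgeR adjusted p = 0.0950) was not called.

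Sp5 showed the same libraries at the top with a far wider range. It spanned 0.0818 to 0.847 CPM in mESCs (median 0.294), 0.0340 to 2.94 at 48 hr (median 0.345) and 0.202 to 62.9 at 96 hr (median 18.8). At 96 hr the E14, H7 and H9 libraries had 1396, 1156 and 2101 counts and the D4, E2 and E3 libraries 7, 21 and 37. All 6 clone codes rose from 48 hr to 96 hr, by 1.47 to 6.30 on the log2 scale. The stage difference was 4.93 (SE 1.23, edgeR adjusted p = 0.00698), while the exact permutation test of the log2 CPM gave p = 0.0628, with stages that overlapped. The permutation tests between EB stages leave the clone codes unpaired. With the code as a block, the Sp5 value was 4.80 (edgeR adjusted p = 0.00175). At 48 hr against mESCs Sp5 was not called (1.08, SE 1.23, edgeR adjusted p = 0.564).

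Rspo3 was at 0.0330 to 0.147 CPM in mESCs, 0.136 to 1.44 at 48 hr (median 0.163) and 0.236 to 65.3 at 96 hr (median 4.35). The counts at 96 hr were 2489, 264 and 761 in E14, H7 and H9 and 10, 12 and 9 in D4, E2 and E3, and all 6 codes rose. Its log2 fold change from 48 hr to 96 hr was 5.39 (SE 1.22, edgeR adjusted p = 0.00396; exact permutation p = 0.0649), and limma on the authors' normalized log2 values gave an adjusted p of 0.0569. With the code as a block the value was 4.66 (edgeR adjusted p = 0.00760). Against mESCs the 96 hr libraries did not overlap, as for Axin2, Tcf7 and Notum, 4 of 9 members beside 22.9% of all genes.

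Dkk1 and Wnt5a rose at 96 hr through few libraries. Dkk1 spanned 0.102 to 2.43 CPM in mESCs (median 0.296), 0.259 to 2.06 at 48 hr (median 0.461) and 0.260 to 36.7 at 96 hr (median 2.48), with 1401, 139 and 388 counts in E14, H7 and H9 at 96 hr and 9, 20 and 18 in D4, E2 and E3. The D4 and E2 codes fell from 48 hr to 96 hr and the others rose. The log2 fold change of 3.64 (SE 1.10, edgeR adjusted p = 0.0209) became 2.16 (adjusted p = 0.284) with the clone code as a block and 2.16 (adjusted p = 0.142) without code E14. Wnt5a spanned 0.270 to 1.97 CPM in mESCs (median 1.65), 0.855 to 2.06 at 48 hr (median 1.58) and 0.918 to 48.9 at 96 hr (median 1.73). The E14 and H9 libraries, at 48.9 and 10.5 CPM, stood far above the earlier stages, and H7 stood at 2.12 CPM just above their highest library. Its log2 fold change of 2.80 (SE 0.85, edgeR adjusted p = 0.0207) became 1.16 (adjusted p = 0.299) with the block and 1.10 (adjusted p = 0.211) without code E14. Against mESCs at 96 hr, Dkk1 (3.53, adjusted p = 0.0141) and Wnt5a (2.91, adjusted p = 0.0103) were called as well, and lost the call without code E14 (Dkk1 2.15, adjusted p = 0.0906; Wnt5a 1.15, adjusted p = 0.133).

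Notum went down over the stages. It spanned 15.1 to 49.0 CPM in mESCs (median 25.3), 5.92 to 21.2 at 48 hr (median 16.6) and 3.05 to 10.5 at 96 hr (median 5.24). All 6 codes fell from 48 hr to 96 hr, by 0.86 to 2.04 on the log2 scale, and the stage difference was -1.34 (SE 0.39, edgeR adjusted p = 0.0162; exact permutation p = 0.0216). Against mESCs the 96 hr value was -2.31 (SE 0.40, edgeR adjusted p = 1.53e-04), with no overlap between the libraries. The E14 and H9 libraries were lowest at 48 hr, and E14, H7 and H9 at 96 hr. With the block the fall from 48 hr to 96 hr kept its call (-1.30, adjusted p = 7.89e-04), and it fell just short without code E2 (0.0504) or H7 (0.0519).

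Genes of the primitive streak moved with these members at 96 hr. All 10 genes of that list rose from 48 hr to 96 hr, and their summed level was 27.2 to 32.8 CPM in the D4, E2 and E3 libraries and 758 to 1109.5 CPM in E14, H7 and H9. The streak factor T (Brachyury) had 13507, 8462 and 17044 counts in E14, H7 and H9 at 96 hr and 50, 35 and 27 in D4, E2 and E3. At 48 hr the summed level was highest in E14, at 99.2 CPM against 13.8 to 27.5 in the other 5 libraries, and E14 was also the highest library of Axin2, Sp5 and Rspo3 at that time. From 48 hr to 96 hr, 6 of the 7 mesoderm markers and 4 of the 6 endoderm markers were called higher, beside 13.9% of all genes. The lists share genes: T, Mixl1, Eomes and Mesp1 are mesoderm markers and Foxa2 an endoderm marker that also stand in the streak list. The part of any cell type in the Wnt gene values was not tested.

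**Figure D3:**
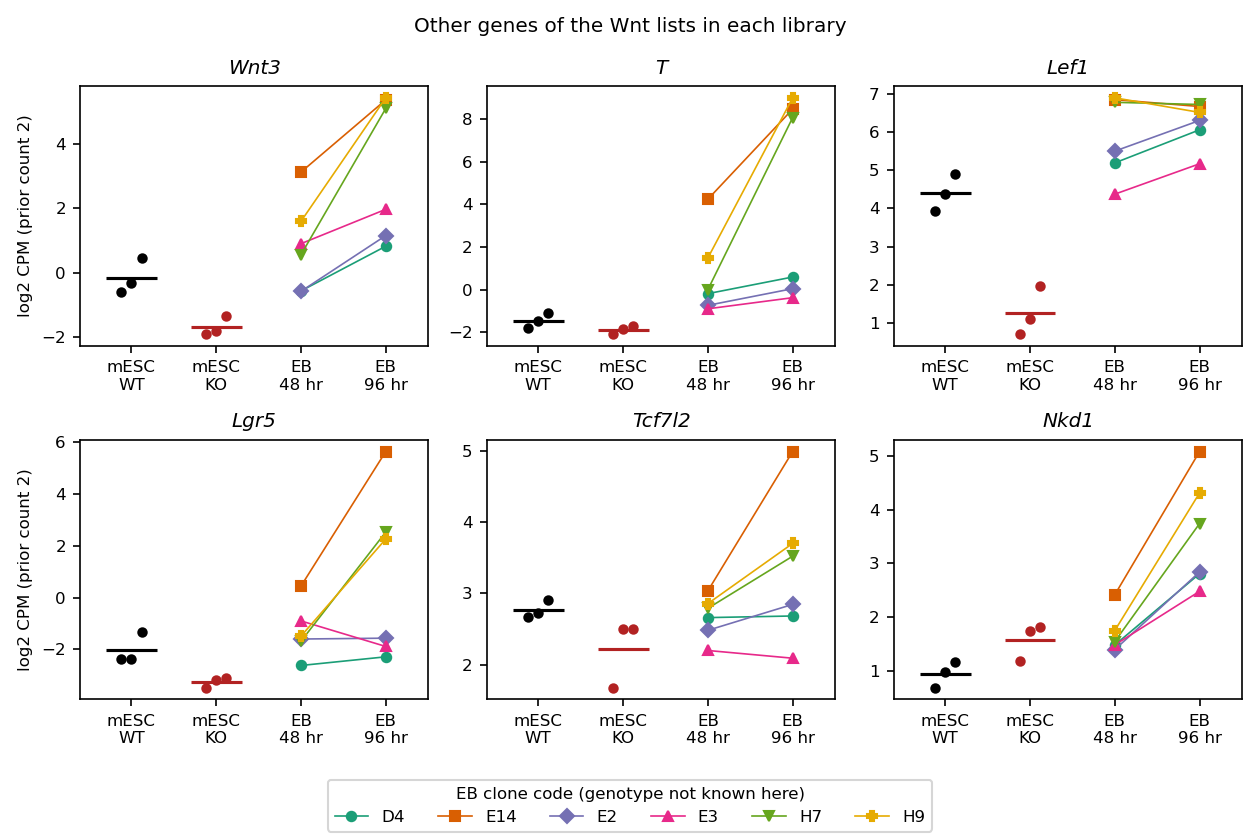
Level in log2 CPM (prior count 2, vertical axis) of 6 further Wnt list genes in each library, for IκBα-WT and IκBα-KO mESC clones (points, with a bar at the mean) and for EBs at 48 hr and 96 hr (lines join the libraries of 1 clone code). T and Wnt3 are highest at 96 hr in E14, H7 and H9, while Lef1 is lower in every KO than in every WT clone and overlaps between 48 hr and 96 hr.

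Across the lists, more Wnt genes were called higher than lower in the EBs. Of 91 other genes tested, 23 were higher and 10 lower at 48 hr against mESCs (36.3% beside 27.9% of all genes), and 35 were higher and 1 lower from 48 hr to 96 hr (39.6% beside 27.7%). At 96 hr against mESCs 56 were higher and 10 lower (72.5% beside 43.0%). As in mESCs, the shares were not matched for expression level. The median log2 fold change of these genes was 0.29, 0.45 and 0.78 in the 3 comparisons, beside values of 0.00, -0.03 and -0.01 over all genes.

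At 48 hr, of 18 receptors, 7 were higher and 2 lower than in mESCs, and Ror1 (2.34), Fzd7 (1.32) and Fzd2 (1.22) rose while Fzd5 (-1.57) and the Rspondin receptor Lgr6 (-1.28) fell, each on the log2 scale. Of 12 nuclear factors 5 were higher and none lower, and Lef1 rose by 2.62 (SE 0.64, edgeR adjusted p = 0.00455) beside Bcl9 (1.08), a co-activator that binds β-catenin. Of 18 response genes 7 were higher, with the zinc finger factor Sp8 (3.40) ahead of Axin2. Of 18 ligands 2 rose and 4 fell, among them Wnt8a (3.47) and Wnt7b (-1.26). The 18 antagonists held 3 rises and 3 falls, with Sfrp2 (1.54) and the ubiquitin ligase Znrf3 (0.41) higher and Sfrp4 (-1.56) and Dkk3 (-1.48) lower. In cytoplasmic transduction 6 of 20 genes rose and 1 fell, with Csnk1d (0.58) and Dvl2 (0.49) higher and Csnk1a1 (-0.63) lower. In Wnt secretion and Rspondins edgeR called 0 of 6 genes (1 at an unadjusted p under 0.05), DESeq2 called 1 and limma 0.

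From 48 hr to 96 hr, of 18 ligands 9 rose and 1 fell, among them Wnt3 (2.98) and Wnt11 (2.80), and Wnt7b fell (-1.60). Wls, the carrier that brings Wnt ligands to the cell surface, rose by 2.76 (SE 0.67, edgeR adjusted p = 0.00622) and was among the 3 of 6 genes of secretion and Rspondins that rose. Of 18 antagonists 7 rose and 1 (Notum) fell, led by Cer1 (Cerberus), which went from a median of 0.0683 CPM to 7.61 CPM (edgeR adjusted p = 0.00115), and by the Frizzled-related protein Frzb (5.64). Of 18 receptors 7 rose, with Lgr5 (4.49), Ror2 (1.21) and Fzd2 (1.17) ahead. In the cytoplasm 7 of 20 genes rose, led by the Dishevelled inhibitors Nkd1 (2.16) and Nkd2 (0.90) and by Csnk1e (0.61). Of 12 nuclear factors 4 rose, among them Pygo1 (1.27), Bcl9l (0.55) and the co-repressor Tle3 (0.54), and Tcf7l1 fell. Of 18 response genes 8 rose and 1 fell, led by T (5.55). Some of these rises lost their call on leaving out 1 clone code. The highest edgeR adjusted p was 0.0641 for Wnt3, 0.0542 for Wnt11, 0.0527 for Fzd2 and 0.0518 for Nkd2. It was 0.0523 for Bcl9l and 0.135 for Csnk1e. Wls, Cer1, Frzb, Lgr5, Ror2, Nkd1, Pygo1, Tle3 and T kept their call. Lef1 stood at 20.7 to 120 CPM (median 77.9) at 48 hr and 36.0 to 106 CPM (median 85.6) at 96 hr and was not called (0.10, SE 0.59, edgeR adjusted p = 0.918).

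**Figure D4:**
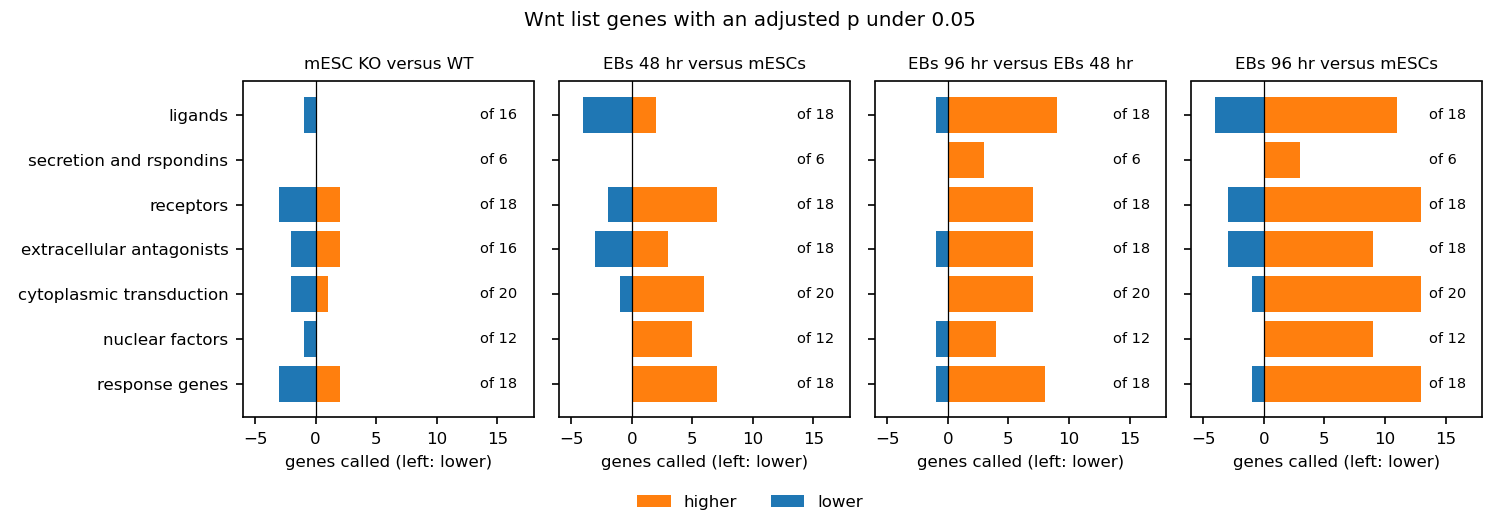
Number of genes called higher (orange, to the right) and lower (blue, to the left) in each of 7 Wnt pathway lists (rows) in 4 comparisons (panels), with the number of genes tested at the right of each row. In EBs at 96 hr against mESCs 13 of 18 receptors and 13 of 18 response genes are higher, while in KO against WT mESCs no list holds more than 5 calls.

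At 96 hr against mESCs, 11 of 18 ligands were higher and 4 lower, with Wnt3 (5.24), Wnt8a (4.99) and Wnt5b (3.35) ahead and Wnt7b (-2.85) lowest. Receptors were higher in 13 of 18 cases and lower in 3 (Fzd5 -1.58, Lgr6 -0.92 and Fzd9 -0.91), with Lgr5 (6.38), Fzd1 (3.39) and Ror1 (2.73) ahead. Antagonists were higher in 9 of 18 cases and lower in 3, with Frzb (7.14) high and Sfrp4 (-1.40) low beside Notum. Genes of cytoplasmic transduction were higher in 13 of 20 cases and lower in 1 (Csnk1a1, -0.63), and Nkd1 (2.57), Axin2 (2.30) and Nkd2 (1.55) led. Nuclear factors were higher in 9 of 12 cases, led by Lef1 (2.72), Bcl9 (1.54) and Tcf7 (1.18), with Tcf7l2 at 1.09. Response genes were higher in 13 of 18 cases and lower in 1, led by T (9.49), Lgr5 (6.38) and Sp5 (6.02). Secretion and Rspondins were higher in 3 of 6 cases, with Rspo3 (7.24) and Wls (3.05) ahead.

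Over the 18 libraries, the genes whose log2 CPM followed Axin2 most closely among the 13177 genes compared (mean count 50 or more) were Dapk1 (Pearson r = 0.97), Pcdh8 (0.97), Txndc5 (0.96), Fgf8 (0.96) and Inpp5e (0.96). Among members, Axin2 had r = 0.87 with Tcf7 and with Rspo3 and r = -0.85 with Notum. The genes closest to Tcf7l1 were Lsm7 (0.97), Zfp142 (0.97), Dnmt3a (0.97), Mbd3 (0.97) and Herc2 (0.96), and no other member went above 0.52 (Tcf7). These values describe libraries that share stage and clone.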

How the data were processed

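The authors trimmed reads with Trim Galore 0.6.6, aligned them to GRCm38 with STAR 2.7.8, used featureCounts (Subread 2.0.1) for uniquely mapped exonic reads and deposited raw counts for 55487 genes in 18 libraries. Reads shared by near-identical genes are therefore not counted. The authors also deposited normalized log2 values (variance-stabilized, DESeq2 1.38.3) for 25318 genes, used only in an alternative. All per-sample columns were used (0 set aside). EB columns were tied to a stage by name, and their genotype was not inferred from values.

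Gene names and positions came from a GENCODE annotation of GRCm38, which matched 55227 identifiers. Genes whose counts summed to 10 or more in the libraries of a fit were kept (21843 in mESCs, 25318 over the stages). In R 4.3.3, edgeR 4.0.16 (TMM, robust quasi-likelihood test) compared KO with WT mESCs and, in 1 fit over 18 libraries, the stages. The SE was taken from the log2 fold change and the F statistic (their ratio after taking the root of F). Log2 CPM used a prior count of 2. Exact permutation tests were two-sided. Alternatives used DESeq2 1.42.0, limma 3.58.1, other filters, offsets per chromosome or 10 Mb window, left-out libraries and blocks. Methods were tested on simulated counts. Total depth limits only genes with few counts, and clones limit the rest. For KO against WT mESCs, p-values measure the spread between clones. In the stage fit, the spread within a stage also holds any genotype difference. That fit and the permutation tests between stages treat libraries as independent, although each clone code is present at both EB stages. The labels do not tie the mESC clones to these codes. The stage p-values are thus not a measure of spread between independent clones.

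The members and gene lists were chosen with earlier results of these data known. Genes named are Nfkbia, the members, Wnt list genes called in mESCs, the 3 largest called increases and decreases per list and stage comparison (mean count of at least 50), TCF partners, Wnt3, markers and the 5 genes closest to Axin2 and Tcf7l1. No 2 libraries agreed within sampling noise (lowest chi-square over its degrees of freedom, 5.47). By this measure KO 1 and KO 3 mESCs were close (8.45), and KO 2 differed from them by 53.7 and 60.9. KO 1 and KO 3 differed from the WT clones by 28.4 to 47.5. The KO group thus held 1 clone that stood apart, in the deepest library, and the measure grows with depth. Deviations of same-numbered WT and KO mESC clones correlated at -0.117, -0.00783 and -0.0284, which does not pair them. The replicate block therefore has no pairing to account for. The 48 hr and 96 hr libraries of 1 clone code had correlations of 0.40 to 0.73, and 5 of 6 codes matched best with their own, so the code block is the paired fit for that comparison.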

Additional observations from a re-analysis of the deposited data

Results flagged for a closer look

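Within the 6 libraries of an EB stage, 1 library stood apart from the others in 7 of 18 groups of member levels, where the gap to the nearest library exceeded 0.625 of the range (Dixon's 95% value). For normally distributed values from 1 population, chance gives about 1 in 20 such groups. The rate was not measured for these CPM values, whose stages hold both genotypes. Of these 7, the E14 library was the high one in 6. At 48 hr it held 62.8 CPM of Axin2 (next 37.0), 2.94 CPM of Sp5 (next 0.740) and 1.44 CPM of Rspo3 (next 0.259). At 96 hr it held 36.7 CPM of Dkk1 (next 11.6), 65.3 CPM of Rspo3 (next 22.8) and 48.9 CPM of Wnt5a (next 10.5). In the remaining group the E2 library held 2.06 CPM of Dkk1 at 48 hr (next 0.714).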

How the results depend on the processing

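Of the 16 Wnt list genes called in KO against WT mESCs, all 16 kept their call under DESeq2 size factors, the DESeq2 Wald test, the filterByExpr filter and the chromosome offset, 15 under limma on the normalized log2 values, 14 without a low-count filter or with the window offset, and 7 under the replicate block. Over all genes, the 1046 calls became 2146 (DESeq2 Wald test), 631 (replicate block) and 372 (absolute log2 fold change over 1), and 0 to 3736 on leaving out 1 clone, with 0 in edgeR without WT 2 (3104 at an unadjusted p under 0.05). The Wnt list count became 7 (replicate block), 6 (fold change over 1) and 0 to 29 (1 clone left out: 4 without WT 1, 0 without WT 2 or WT 3, 6 without KO 1, 29 without KO 2 and 4 without KO 3). With the fold change also required, the stage calls became 2422 (48 hr against mESCs, Wnt lists 21 of 36), 3003 (96 hr against 48 hr, Wnt lists 28 of 43) and 5278 (96 hr against mESCs). Leaving out a clone code, chosen after seeing the data, gave 4357 to 7720 calls from 48 hr to 96 hr, lowest without H7, and 25 to 46 Wnt list genes, with 25 without H7 and 27 without H9. Under the clone code block the members that lost their call were Dkk1 and Wnt5a.

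Some values changed sign, none of them called, and most were near 0. Tcf7l1 in mESCs was -0.047 with the window offset and -0.034 to 0.062 on leaving out a clone. At 48 hr against mESCs, with WT mESC libraries only, Ctnnb1 was -0.093, Wnt5a -0.25 and Dkk1 1.60. Dkk1 was 0.027 in limma and -0.77 to 0.065 on leaving out a code, and Sp5, at 1.08 with all codes, was -0.17 to 1.33, lowest and turned in sign without E14. Ctnnb1 at 96 hr against WT mESCs only was -0.046. Lef1 from 48 hr to 96 hr was -6.03e-04 to 0.25 on leaving out a code. The cause was not tested. Notum at 48 hr against mESCs (adjusted p = 0.0678) passed in DESeq2 (0.0374), limma (0.0340), against WT mESCs only (0.0356) and without code E3 (0.0432). Wnt5a at 96 hr against mESCs lost its call in limma (0.152), against WT mESCs only (0.101) and without code E14 (0.133), and Dkk1 in limma (0.0800) and without code E14 (0.0906). With 3 clones per genotype, Rspo3 and Sp5 in mESCs are limited by their counts.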

Other observations

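The labels give the 96 hr EB libraries no genotype by code. Their values fell into separate clusters for some members. Axin2 stood at 28.9 CPM in D4, 108 in E14, 31.1 in E2, 26.1 in E3, 101 in H7 and 108 in H9. Sp5 stood at 0.202, 36.6, 0.582, 0.971, 36.7 and 62.9 CPM in the same order of codes, Rspo3 at 0.289, 65.3, 0.333, 0.236, 8.37 and 22.8 CPM, and Dkk1 at 0.260, 36.7, 0.554, 0.472, 4.41 and 11.6 CPM. Tcf7l1 stood at 93.2, 62.3, 88.1, 78.3, 61.0 and 55.0 CPM. Ctnnb1, at 919, 975, 916, 867, 984 and 982 CPM, spread by little. Lef1 parted the libraries at 48 hr, with 1076 counts in D4, 3388 in E14, 1346 in E2, 653 in E3, 3525 in H7 and 3237 in H9. Where E14, H7 and H9 are set beside D4, E2 and E3, that grouping was read from values such as these. No test was made between groups of libraries within an EB stage.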
